A study of Homo sapiens with 4 samples.

Results

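The fatty acid desaturases and elongases examined here were 10 genes chosen by name: the stearoyl-CoA desaturases SCD and SCD5, the front-end desaturase family FADS1, FADS2 and FADS3, and the elongases ELOVL1, ELOVL4, ELOVL5, ELOVL6 and ELOVL7. All 10 were found among the 59384 gene names with readable counts. Their RNA was measured by RNA sequencing in Daoy, an established human medulloblastoma cell line, after infection with shFABP4 virus, made to knock FABP4 down (2 libraries, genotype label FABP4 knockdown), or with pLKO control virus (2 libraries, genotype label WT). FABP4 is a cytosolic carrier of fatty acids, and the series is framed around its part in medulloblastoma growth. Beyond the virus the labels give both groups the same cell line, and no time after infection. The labels do not say that a group's libraries are separate cultures, and the spread behind each p-value may therefore be technical. FABP4 itself had 1 and 6 fragments in the pLKO pair, 14 in shFABP4 1 (5.21 expected from the background described next) and 0 in shFABP4 2, too few to check the knockdown.

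Cells receive fatty acids from synthesis and uptake and remodel them in the membrane of the endoplasmic reticulum. Desaturases insert a double bond, drawing electrons from cytochrome b5, and elongases catalyse the condensation step that lengthens an acyl-CoA by a pair of carbons. The balance of the enzymes sets how saturated and how long the acyl chains of membrane lipids are, and SCD, the main maker of oleate, is a classical target of the lipogenic factor SREBP.

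The pLKO libraries held 8988961 and 13839885 counted fragments, shFABP4 1 held 2539862 and shFABP4 2 held 20431660. The library labelled shFABP4 1 stood apart: 367 of 380 olfactory receptor genes, which these cells should not use, had a fragment there, against 38 to 68 in the other libraries. Background estimated from 2657 coding genes that were at 0 in the other 3 libraries came to 54.6% of shFABP4 1. Of 11 lineage markers, VIM and CD44 were abundant in all 4 libraries, while SOX2, ATOH1 and OTX2 had 0 to 2 fragments in the pLKO libraries and 0 in shFABP4 2. The 11 summed to 1888 and 1904 CPM (fragments per 1000000 counted) in pLKO, 1592 in shFABP4 1 and 7018 in shFABP4 2, mostly VIM, so shFABP4 2 stood apart here. GLI1 had 49, 72, 123 and 479 fragments in the order pLKO 1, pLKO 2, shFABP4 1 and shFABP4 2, and ZIC2 had 38, 71, 63 and 386. Of 7 lineage markers tested, edgeR called 0 with 4 libraries, beside 0% of 14735 genes. An unadjusted edgeR p under 0.05 was found for 3, beside 1818 of all genes, and DESeq2 called 1, beside 4.88% of genes. Without shFABP4 1, which leaves shFABP4 2 alone in its group, all 7 were higher in shFABP4. The median log2 fold change over all genes was then 0.04. Markers of adipocytes (5 genes) summed to 0.779 and 1.66 CPM in pLKO, 1.17 in shFABP4 2 and 87.4 in shFABP4 1. LPL and ADIPOQ had 0 or 1 fragment outside shFABP4 1. Markers of blood, endothelial and epithelial cells likewise summed to at most 0.867 CPM outside shFABP4 1 and to 46.1 to 90.6 within it, and liver markers to at most 1.67 and to 17.7. Expected background was 174 of the 222 adipocyte marker fragments in shFABP4 1, 108 of 193 for blood, 124 of 230 for endothelium, 65.7 of 117 for epithelium and 37.98 of 45 for liver. The part of these markers and of the lineage markers in the results was not tested, and tests are given with and without shFABP4 1. In such bulk samples, fewer cells of a type and less RNA per cell cannot be told apart.

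In the control cells ELOVL1 was the most abundant of the 10 transcripts per kb of exon. As FPKM (CPM per kb of merged annotated exons), ELOVL1 was at 78.3 and 81.6 in the pLKO libraries and SCD at 43.3 and 42.6. FADS1 (15.8 and 15.8), FADS3 (11.5 and 11.5), ELOVL5 (5.11 and 5.14), FADS2 (4.71 and 4.23), ELOVL6 (3.47 and 3.39), ELOVL7 (1.45 and 1.52), SCD5 (1.29 and 1.02) and ELOVL4 (0.738 and 1.06) followed on this scale. Neighbours in this order were apart in both libraries except SCD5 and ELOVL4, whose ranges overlapped. The order depends on the merged exon lengths, such as 2506 bases for ELOVL1, 5245 for SCD, 10228 for FADS1 and 10553 for FADS2. The lengths of the transcripts made in these cells were not measured, so a gene with long merged exons may be understated. An elongase of very long saturated chains and SCD thus held the first places in the controls. In shFABP4 2 the first places were exchanged, with SCD at 107.5 and ELOVL1 at 38.03 on the same scale.

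**Figure D1:**
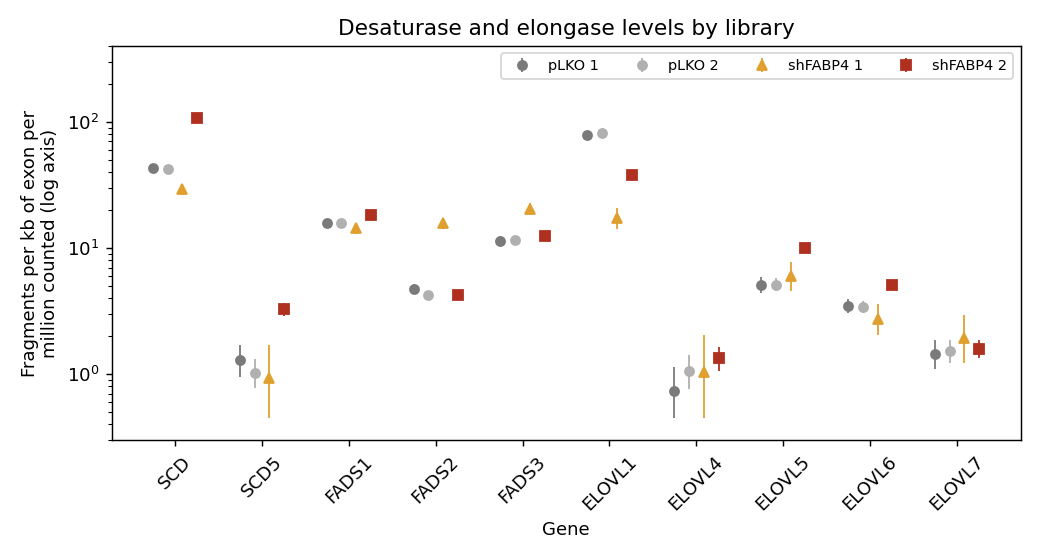
Level of each gene in each library, as FPKM on a log axis, with exact 95% Poisson intervals that cover counting error only. In shFABP4 2 SCD (107.5) stands above its pLKO values (43.3 and 42.6) and ELOVL1 (38.03) below its own (78.3 and 81.6).

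How far each count in shFABP4 1 exceeded background was read from the rates of those silent genes, by exon length and GC content. SCD held 388 fragments there against 40.5 expected, a ratio of 9.58. FADS1 held 373 against 109, FADS2 421 against 171, FADS3 324 against 102, ELOVL1 110 against 40.6 and ELOVL5 58 against 19.2. ELOVL6 (51 against 36.7) and ELOVL7 (22 against 16.98) lay close to their expected background. SCD5 (10 against 32.7) and ELOVL4 (8 against 11.5) lay below it. Among 1885 silent genes with at least 10 expected fragments, the ratio of counted to expected ran from 0 at the 5th percentile to 2.88 at the 95th. Only SCD, FADS1, FADS3 and ELOVL5 exceeded the 95th percentile, the last 3 narrowly (ratios of 3.43, 3.18 and 3.02). FADS6, a family member with 3, 6 and 0 fragments in the other libraries, reached a ratio of 4.55. The SCD ratio alone among the members exceeded that of FADS6.

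**Figure D2:**
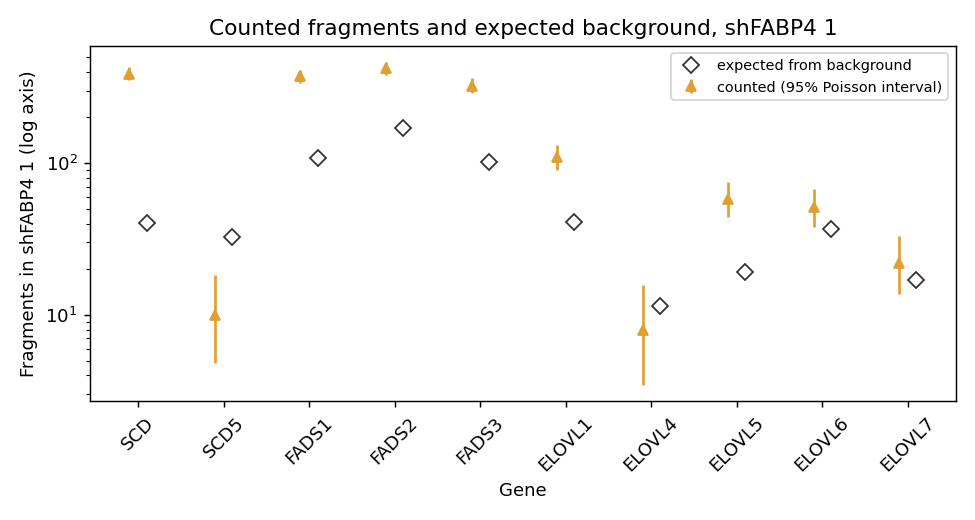
Fragments counted in shFABP4 1 (triangles, exact 95% Poisson intervals) and fragments expected there from background (diamonds) for each gene, on a log axis. SCD lies 9.58 times above its expected background, while SCD5 and ELOVL4 lie below theirs.

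SCD turns stearoyl-CoA and palmitoyl-CoA into oleoyl-CoA and palmitoleoyl-CoA. It lies on chromosome 10 from 100347233 to 100364826 (GRCh38, plus strand), with 5245 bases of merged exons. SCD had 2041 and 3094 fragments in the pLKO pair, 388 in shFABP4 1 and 11521 in shFABP4 2. As CPM this was 227 and 224 in the pLKO pair, 153 (exact 95% Poisson interval 138 to 169) in shFABP4 1 and 564 (554 to 574) in shFABP4 2. On this scale shFABP4 1 was below the control pair and shFABP4 2 above it, at 0.678 and 2.50 times its mean. Where libraries were scaled by transcripts well above background (described with the tests), SCD was at 355 and 350 normalised CPM in pLKO, 912 in shFABP4 1 and 1066 in shFABP4 2, so the groups did not overlap. Under this scaling 63.8% of all genes tested and 9 of the 10 members lay above both controls in both shFABP4 libraries. With its expected background taken off, SCD was at 817 in shFABP4 1.

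SCD5, a second stearoyl-CoA desaturase known mainly from brain, lies on chromosome 4 from 82629539 to 82798796 (minus strand). It had 49 and 60 fragments in the pLKO pair, 10 in shFABP4 1 and 284 in shFABP4 2. As CPM it was at 5.45 and 4.34 in pLKO, 3.94 (exact 95% Poisson interval 1.89 to 7.24) in shFABP4 1 and 13.9 (12.3 to 15.6) in shFABP4 2. In shFABP4 2 SCD5 was at 2.84 times its control mean, beside 2.50 times for SCD. SCD made up 97.1% and 97.7% of the pair's fragments per kb in the pLKO pair, 96.9% in shFABP4 1 and 97.0% in shFABP4 2. The ratio of SCD to SCD5 per kb was 33.6 and 41.6 in pLKO, 31.3 (exact 95% binomial interval 16.8 to 65.8) in shFABP4 1 and 32.7 (29.1 to 36.9) in shFABP4 2. The 10 SCD5 fragments in shFABP4 1 lie below the expected background, and with background taken off SCD held 100% there. The processed pseudogene SCDP1 had 0 fragments outside shFABP4 1 and 10 within it.

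The windows before the starts of SCD and SCD5 are shown because these genes stood furthest above pLKO among the 10 in shFABP4 2. Each gives the 250 bases before the RefSeq start (GRCh38.p14), 5′ to 3′ on the gene's strand, chr10:100346983-100347232 (plus strand) for SCD and chr4:82798797-82799046 (minus strand) for SCD5. Capitals mark CCAAT, the box bound by the factor NF-Y, on either strand.
SCD: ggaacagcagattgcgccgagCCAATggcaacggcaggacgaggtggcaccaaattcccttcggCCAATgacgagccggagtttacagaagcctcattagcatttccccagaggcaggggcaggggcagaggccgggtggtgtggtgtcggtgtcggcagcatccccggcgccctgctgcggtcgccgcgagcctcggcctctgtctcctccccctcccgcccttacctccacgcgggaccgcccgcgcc
SCD5: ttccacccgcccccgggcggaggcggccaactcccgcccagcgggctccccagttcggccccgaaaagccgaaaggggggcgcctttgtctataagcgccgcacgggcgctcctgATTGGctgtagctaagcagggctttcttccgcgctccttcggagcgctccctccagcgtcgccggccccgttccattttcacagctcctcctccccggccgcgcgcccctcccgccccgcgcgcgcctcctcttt
Counted from the start, SCD held 2 such boxes, at -229 to -225 and -186 to -182, and SCD5 held 1, on the other strand at -135 to -131. CCAAT was found on either strand in 6 of the 10 members' windows (SCD, SCD5, FADS3, ELOVL1, ELOVL4 and ELOVL5), beside 33.0% of 27305 RefSeq windows of the same length. The E-box CACGTG was in 2 windows (ELOVL4 and ELOVL5), beside 6.49% of all. GGGCGG, the GC box, was in 8, beside 42.3% of all. The TATA box TATAAA was in 0 of the 10, beside 11.1% of all. Some windows hold bases that GENCODE 38 counts as exon of the same gene. These were 229 of the 250 bases for ELOVL5, 194 for FADS1, 63 for ELOVL1, 62 for ELOVL6 and 5 for ELOVL7. Each motif was sought on both strands, and the one overlap between motifs was that of a CCAAT and a GC box in the ELOVL1 window. ELOVL1, lower in shFABP4 2, holds CCAAT as do SCD and SCD5, and a match describes these letters only.

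FADS2 carries out the first desaturation of linoleic and alpha-linolenic acid, FADS1 the later step that yields arachidonic and eicosapentaenoic acid, and FADS3 acts on sphingoid bases. The genes are neighbours on chromosome 11, with FADS2 from 61792980 to 61867354 (plus strand), FADS1 from 61799627 to 61829318 (minus strand) and FADS3 from 61873519 to 61892051 (minus strand). FADS1 and FADS2 share 490 bases of exon on opposite strands. Counting used no strand, so reads in that stretch cannot be assigned to either gene.

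FADS1 had 1457 and 2230 fragments in the pLKO pair, 373 in shFABP4 1 and 3832 in shFABP4 2, or 162, 161, 147 and 188 CPM. FADS2 had 447, 618, 421 and 922 fragments, or 49.7 and 44.7 CPM in pLKO, 166 in shFABP4 1 and 45.1 in shFABP4 2. FADS3 was at 72.1 and 72.3 CPM in the pLKO pair, 128 in shFABP4 1 and 78.2 in shFABP4 2. The high FADS2 and FADS3 values were those of shFABP4 1, and shFABP4 2 lay within 1.16 times the control mean for all 3. Within the family FADS1 held 49.5% and 50.1% of the fragments per kb in pLKO and 52.3% in shFABP4 2. In shFABP4 1 its share was 28.5%, or 30.5% with background taken off. The ratio of FADS1 to FADS2 per kb was 3.36 and 3.72 in pLKO, 4.29 (exact 95% binomial interval 3.99 to 4.61) in shFABP4 2 and 0.914 (0.793 to 1.05) in shFABP4 1.

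ELOVL1 lengthens saturated and monounsaturated acyl-CoAs to the very long chains of sphingolipids and lies on chromosome 1 from 43363398 to 43368074 (minus strand). It had 1764 and 2831 fragments in the pLKO pair, 110 in shFABP4 1 and 1947 in shFABP4 2. As CPM this was 196 and 205 in pLKO, 43.3 (exact 95% Poisson interval 35.6 to 52.2) in shFABP4 1 and 95.3 (91.1 to 99.6) in shFABP4 2. Both shFABP4 libraries lay below both controls, at 0.216 and 0.476 times their mean. It was also below in both with TMM scaling over all genes tested (0.105 and 0.401) and with TMM over abundant genes (0.826 and 0.575). No other member was below both controls in both libraries under all 3 scalings together, beside 4.13% of the 14735 genes tested. With these scaling factors, a gene below under TMM over abundant genes must be below under the other scalings too. The agreement of the scalings is therefore no added evidence for ELOVL1. Under single scalings 1 member was below as CPM (15.9% of genes) and 1 with TMM over abundant genes (4.13%). With TMM over all genes 4 members were below (26.1%), FADS1, FADS3 and ELOVL7 beside ELOVL1.

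ELOVL5 elongates polyunsaturated chains, ELOVL6 takes palmitate to stearate, the substrate of SCD, ELOVL7 extends saturated chains, and ELOVL4 makes the ultra-long chains of retina, skin and brain. ELOVL5, on chromosome 6 from 53267398 to 53349179, had 175 and 271 fragments in the pLKO pair, 58 in shFABP4 1 and 784 in shFABP4 2 (19.5, 19.6, 22.8 and 38.4 CPM). ELOVL6, on chromosome 4 from 110045846 to 110199199, had 227, 341, 51 and 756 fragments (25.3, 24.6, 20.1 and 37.0 CPM). In shFABP4 2 both lay above the controls, at 1.97 and 1.48 times their mean, and in shFABP4 1 ELOVL5 lay above and ELOVL6 below. ELOVL7, on chromosome 5 from 60751791 to 60844274, was at 6.45, 6.79, 8.66 and 7.10 CPM and ELOVL4, on chromosome 6 from 79914814 to 79947553, at 2.22, 3.18, 3.15 and 4.01 CPM in the same order of libraries. For each of these last genes the exact 95% Poisson intervals of all 4 libraries overlapped.

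Shares within a library do not depend on how libraries are scaled. ELOVL1 held 87.9% and 88.0% of the fragments per kb of the 5 elongases in pLKO, 59.6% in shFABP4 1 and 67.8% in shFABP4 2. ELOVL5 held 5.73% and 5.54% in pLKO against 20.6% and 17.9%, and ELOVL6 held 3.90% and 3.65% against 9.51% and 9.07%. ELOVL7 held 1.62% and 1.64% against 6.69% and 2.84%, and ELOVL4 0.829% and 1.14% against 3.60% and 2.37%. Shares sum to the whole, so the other 4 gain together where ELOVL1 holds less. With background taken off shFABP4 1, ELOVL1 was at 67.6%, ELOVL5 at 24.8%, ELOVL6 at 4.81%, ELOVL7 at 2.75% and ELOVL4 at 0%. The ELOVL6 share there was then near that of the controls and the ELOVL4 share below them. In shFABP4 1 the counts of ELOVL1, ELOVL4, ELOVL6 and ELOVL7 lay within the spread of silent genes. The shares in that library therefore cannot be told apart from the make-up of its background.

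**Figure D3:**
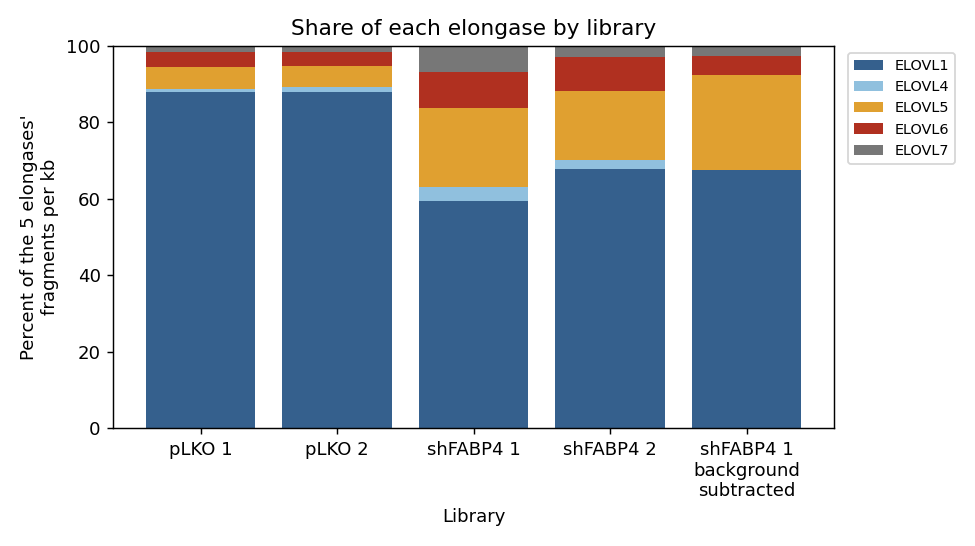
Percent of the summed fragments per kb of the 5 elongases held by each gene, per library, with shFABP4 1 also shown after its expected background was taken off. The ELOVL1 part is 87.9% and 88.0% in pLKO and 59.6% to 67.8% in the shFABP4 bars. In shFABP4 1 all of these genes but ELOVL5 lay within the spread of silent genes.

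SCD and ELOVL1 are set against each other because they exchanged first places in shFABP4 2. In shFABP4 1 SCD was at 29.1 FPKM, followed by FADS3 at 20.3 and then ELOVL1 at 17.3. The ratio of SCD to ELOVL1 per kb was 0.553 (exact 95% binomial interval 0.518 to 0.590) and 0.522 (0.496 to 0.550) in pLKO. It was 1.69 (1.36 to 2.10) in shFABP4 1 and 2.83 (2.69 to 2.97) in shFABP4 2. In shFABP4 1 it was 2.39 with background taken off both genes. The groups did not overlap with or without background, and the intervals cover counting error only. How often other pairs of genes part the groups was not computed. With TMM over abundant genes, 34.5% of those genes lay above both controls in both shFABP4 libraries and 41.2% below. The ELOVL1 count in shFABP4 1 lay within the spread of silent genes (ratio 2.71, 95th percentile 2.88). ELOVL1 has a GC content of 55.4% and SCD of 47.1%, and background in shFABP4 1 rose with GC content. The ratio of SCD to FADS1 did not part the groups, at 2.73 and 2.71 in pLKO, 2.03 in shFABP4 1 (2.57 with background off) and 5.86 in shFABP4 2. These ratios are given as descriptions, with no test. An exact permutation over 2 libraries against 2 cannot give a two-sided p below 0.333.

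Tested over all genes, no member passed. With edgeR's quasi-likelihood test, TMM scaling and Benjamini-Hochberg adjustment, all 10 members passed the low-count filter and 0 had an adjusted p under 0.05, beside 0% called of 14735 genes. At an unadjusted p under 0.05 the counts were 0 of 10 members and 1818 of all genes. DESeq2 called 0 members and 719 genes (4.88%), and limma-voom called 0 of either. ELOVL1 had the smallest member p, at -1.98 on the log2 scale (SE 0.89, adjusted p = 0.393, edgeR). SCD was at 0.29 (SE 1.11, adjusted p = 0.902, edgeR), and its SE reflects shFABP4 libraries at 101 and 650 normalised CPM. The median over the members was -0.15 and over all genes tested 0.34.

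Without shFABP4 1, 6 of 10 members were called by edgeR, beside 66.9% of 15301 genes, so the members' count was near the background. The spread then comes from the pLKO pair alone, and the lone shFABP4 2 is taken to vary like it. Relative to pLKO, SCD rose by 1.08 (SE 0.04, adjusted p = 3.82e-40), SCD5 by 1.29, ELOVL5 by 0.73 and ELOVL6 by 0.33 on the log2 scale. ELOVL1 fell by 1.32 (SE 0.05, adjusted p = 5.61e-38) and FADS2 by 0.30. FADS1 (-0.03), FADS3 (-0.13), ELOVL4 (0.29) and ELOVL7 (-0.15) did not pass. Without shFABP4 2 instead, all 10 were called lower. Of 27830 genes 85.9% were called, 56.6% higher and 29.3% lower, in a fit that rests on the background of shFABP4 1 and whose median over all genes was 2.22.

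**Figure D4:**
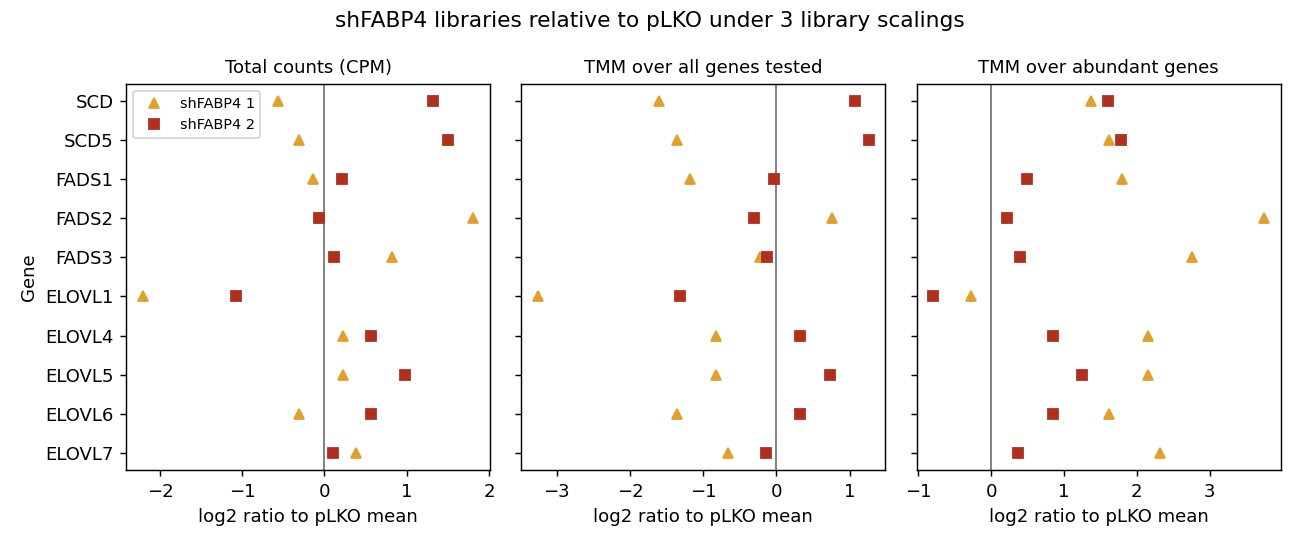
Log2 ratio of each shFABP4 library to the pLKO mean for each gene under 3 ways of scaling libraries, with a line at no difference. ELOVL1 lies left of the line in both libraries in each panel, SCD lies on opposite sides in the first and second panels and right of the line in the third.

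The side of most members in shFABP4 1 turned with the scaling. As CPM 4 members lay above both controls there and 5 below, beside 68.8% and 28.6% of all genes tested. With TMM over all genes 1 lay above and 9 below, beside 51% and 45.4%. With TMM over abundant genes 9 lay above and 1 below, beside 94.2% and 5.3%, shares near those of the members. In shFABP4 2 the members above both controls were 8 as CPM (56.3% of all genes), 5 with TMM over all genes (47.3%) and 9 with TMM over abundant genes (65%). The members below were 1 (36.4%), 5 (44.6%) and 1 (28.7%). In both shFABP4 libraries at once, 3 members were above as CPM (43.3%), 0 with TMM over all genes (28.5%) and 9 with TMM over abundant genes (63.8%), and 1, 4 and 1 were below. In shFABP4 2 alone, SCD, SCD5, ELOVL4, ELOVL5 and ELOVL6 were above and ELOVL1 below under all 3 scalings. With these scaling factors, a gene above there under TMM over all genes (47.3% of genes) must be above under the others. Likewise a gene below there under TMM over abundant genes (28.7%) must be below under the others. The agreement of the scalings is therefore no added evidence.

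Abundant transcripts offered the least background. The set held 1038 coding genes whose RNA in shFABP4 1, predicted from their pLKO share alone, was at least 5 times the expected background. Only SCD (6.42 times) and ELOVL1 (5.69 times) among the members belonged to it, and FADS1 (1.71 times) was the nearest outside. These multiples are predictions. The counted ratio in shFABP4 1 was 9.58 for SCD and 2.71 for ELOVL1, the latter within the spread of silent genes (95th percentile 2.88). Within the set 22.3% of genes were called by edgeR, 10.4% as higher and 11.8% as lower. SCD rose, from 352 ± 3.36 normalised CPM in pLKO to 989 ± 109 in shFABP4 (SD, n = 2 each), or by 1.49 on the log2 scale (SE 0.14, adjusted p = 0.0247, edgeR). ELOVL1 was at 313 ± 9.64 and 219 ± 55.5 (SD, n = 2 each), or -0.54 on the log2 scale (SE 0.22, adjusted p = 0.156, edgeR), and did not pass. Of the set, 34.5% lay above both controls in both shFABP4 libraries, as SCD did, and 41.2% below, as ELOVL1 did. SCD and ELOVL1 went in opposite directions, so their midpoint of 0.48 describes neither gene. The median over the set was -0.05. With background taken off shFABP4 1 both passed, SCD at 1.55 (adjusted p = 0.0170, edgeR) and ELOVL1 at -0.74 (adjusted p = 0.0266, edgeR). In that fit 322 of the 1038 genes were called. The set was chosen by pLKO level, which can favour genes that are lower in shFABP4. The ELOVL1 pass also rests on a count within the spread of silent genes, so it is no firm support for a lower level. Without shFABP4 1, where shFABP4 2 stands alone in its group, ELOVL1 was at -0.73. With a correction for GC content and length it was at -0.26 (adjusted p = 0.382, edgeR), and without shFABP4 2 at -0.28 (adjusted p = 0.0804, edgeR). The SCD call was lost without pLKO 1 (1.501, adjusted p = 0.281, edgeR), without pLKO 2 (1.48, adjusted p = 0.282, edgeR) and with total-count scaling (0.67, adjusted p = 0.737, edgeR). It was also lost in the wider sets that used 2 times background (1.31, adjusted p = 0.0745, edgeR) or a background rate by length alone (1.57, adjusted p = 0.0642, edgeR).

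**Figure D5:**
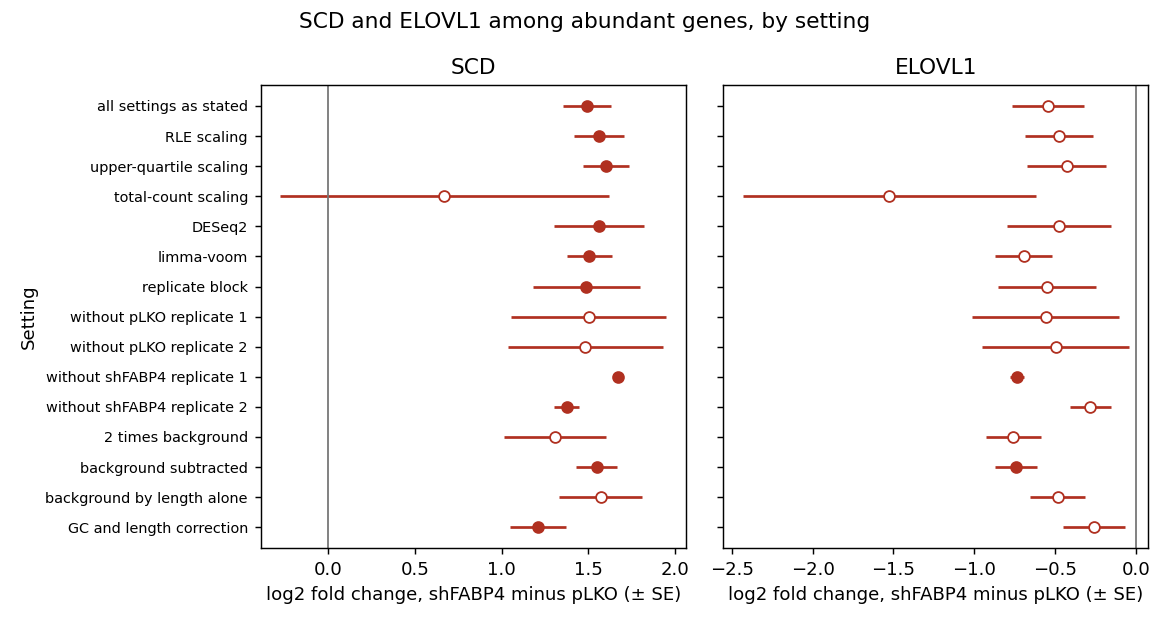
Log2 fold change (shFABP4 minus pLKO, ± SE) of SCD and ELOVL1 among abundant genes under each setting, filled where the adjusted p is under 0.05. SCD is positive throughout, from 0.67 to 1.67, and ELOVL1 negative throughout, from -1.53 to -0.26.

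The abundant genes whose pattern over the 4 libraries was most like that of SCD were BCL2A1, SRSF2 and OXA1L. Likeness was the Euclidean distance of log2 normalised CPM, centred on each gene's pLKO mean, over 1037 genes with no zero (distances 0.0752, 0.115 and 0.117). SRSF2, a splicing factor, was at 207 and 216 normalised CPM in pLKO, 510 in shFABP4 1 and 635 in shFABP4 2. BCL2A1, a survival protein of the BCL2 family, had 30 fragments in shFABP4 1 against 3.79 expected. OXA1L, an insertase of the mitochondrial inner membrane, was at 269, 254, 675 and 734.

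Of the other desaturases and elongases, ELOVL2, ELOVL3 and FADS6 had at most 15 fragments outside shFABP4 1. DEGS1, the dihydroceramide desaturase, had 1200 and 2094 fragments in the pLKO pair, 125 in shFABP4 1 and 6253 in shFABP4 2. Its expected background in shFABP4 1 was 12.3. Among abundant genes it was at 0.99 (SE 0.38, adjusted p = 0.141, edgeR) and did not pass. It was named after its values were seen. PEDS1, the plasmanylethanolamine desaturase, was at 77.1 and 77.1 CPM in pLKO, 51.6 in shFABP4 1 (131 fragments, 68.5 expected from background) and 73.6 in shFABP4 2. DEGS2 had 18, 23, 180 and 45 fragments, with 74.5 expected from background in shFABP4 1.

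The enzymes that complete the elongation cycle include HSD17B12, the ketoacyl reductase, HACD1 to HACD4, the dehydratases, and TECR, the enoyl reductase. Of 5 tested, 0 were called with all 4 libraries (edgeR, 1 with an unadjusted p under 0.05, DESeq2 0), and without shFABP4 1 edgeR called 4 higher and 1 lower, beside 34.2% higher and 32.7% lower of all genes. The median of the 5 was 0.75, beside 0.04 over all genes. HSD17B12 was the lower gene, at 88.7 and 89.0 CPM in pLKO, 28.0 in shFABP4 1 and 38.8 in shFABP4 2. With 4 libraries it was at -1.94 on the log2 scale (SE 0.64, adjusted p = 0.391, edgeR). Its 71 fragments in shFABP4 1 stood against 29.4 expected. HACD2 had 25 and 29 fragments in the pLKO pair, 63 in shFABP4 1 (26.3 expected) and 132 in shFABP4 2.

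Electron donors, fatty acid synthesis, acyl-CoA activation and the regulators of lipogenesis gave 0 calls with 4 libraries (edgeR and DESeq2), among 6, 10, 4 and 13 genes tested, with an unadjusted edgeR p under 0.05 for 0, 1, 0 and 0. Without shFABP4 1 edgeR called 2 higher and 2 lower of the electron donors, 3 and 5 of the synthesis genes, 1 and 2 of the activation genes and 5 and 5 of the regulators, beside 34.2% higher and 32.7% lower of all genes. CYB5R3, the reductase that feeds cytochrome b5, was at 382 and 392 CPM in pLKO, 107 in shFABP4 1 (272 fragments, 109 expected from background) and 208 in shFABP4 2. CYB5R2 had 5 to 12 fragments outside shFABP4 1. MCAT, the malonyl transferase of mitochondrial fatty acid synthesis, was at 54.7, 60.8, 31.5 and 24.1 CPM and MECR, the reductase of that pathway, at 57.3, 67.1, 29.5 and 43.2. In shFABP4 1 background was expected to give 45.1 of the 80 MCAT fragments and 44.04 of the 75 MECR fragments. The acyl-CoA binding protein DBI had 706 and 973 fragments in the pLKO pair, 116 in shFABP4 1 (9.50 expected from background), and in shFABP4 2 it had 949. ACSL1, an acyl-CoA synthetase, had 14, 22, 38 and 60, with 47.4 expected in shFABP4 1. SCAP, the escort of SREBP, was at 53.0 and 54.6 CPM in pLKO, 72.4 in shFABP4 1 and 23.6 in shFABP4 2, and NR1H3, the sterol receptor LXR alpha, at 44.8, 46.7, 41.3 and 25.8. In shFABP4 1 background was expected to give 119 of the 184 SCAP fragments and 73.5 of the 105 NR1H3 fragments. Both were the regulators of smallest p. Among the others MBTPS1, a protease that cleaves SREBP, was at 1.44 and INSIG1, which retains SCAP, at 0.44 on the log2 scale without shFABP4 1. In the same fit the SREBP genes SREBF2 and SREBF1 were at -2.43 and 0.05, MLX at -1.45 and NR1H2 at -0.74. The median of the 13 regulators was -0.21, beside 0.04 over all genes. MBTPS1, INSIG1, SREBF2, SREBF1, MLX and NR1H2 were named after their values were seen.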

How the data were processed

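RNA from 2 pLKO and 2 shFABP4 Daoy libraries was sequenced, and groups came from the sample titles. The authors deposited a table of raw fragment counts by gene name, made with featureCounts 2.0.0 over GENCODE 38 exons, with chimeric fragments left out and no strand option, per the file headers. The submitters' processing notes name FastQC, HISAT, StringTie and GRCh38, and per the labels' protocols mRNA was captured on beads and fragmented with Tn5. A row broken over 7 lines was left out. Exon lengths came from the deposited table, gene types and GC content from GENCODE 29 (63.6% of names matched), and promoter windows from RefSeq (10 of 10 members). The 10 members, the lists and the tests were chosen with earlier results of these data known.

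The main test was the robust quasi-likelihood test of edgeR 4.0.16 (R 4.3.3, two-sided) with TMM scaling, Benjamini-Hochberg adjustment over all genes and a threshold of 0.05. Low genes were removed by filterByExpr (minimum count 10, minimum total 15). Background in shFABP4 1 was the rate per kb of silent coding genes in 6 bins of GC content, from 3.81 to 18.9 fragments per kb. Alternatives were DESeq2 1.42.0, limma-voom (limma 3.58.1), other scalings, filters and background multiples, a replicate block and each library left out. Named genes were the 10 members, the 2 genes of smallest p in each pathway list and the 3 most like SCD. On simulated data with 200 changed genes, edgeR over 14735 genes and 4 libraries recovered 0 when the fold was 4 and 0 when it was 16. Among 1038 abundant genes 195 were found when the fold was 4 (13 false calls) and 93 when it was 2 (9 false calls). Without shFABP4 1, over 15301 genes, 75 were found when it was 1.5 (14 false calls). Counts of the pLKO pair differed beyond counting noise (chi-square over degrees of freedom 2.16, 13291 genes), as did those of the shFABP4 pair (359, 24712 genes), and all 4 were kept. No molecular identifiers are stated, so intervals cover counting error only.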

Additional observations from a re-analysis of the deposited data

How the results depend on the processing

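Over all genes tested, 0 members passed in each setting with 4 libraries (RLE, upper-quartile, total-count and abundant-gene scaling, DESeq2, limma-voom, the replicate block and no low-count filter). With a library left out the number of members called ran from 0 to 10 and that of genes from 0 to 23895. DESeq2 called 719 genes, the fit with no low-count filter 69 and the replicate block 28. The replicate numbers were not taken to pair the libraries (2 pairs, correlation of their deviations 0.0106), and the block left the members called at 0 and, among abundant genes, at 1. Several fold changes that did not pass turned direction. With TMM from abundant genes FADS1 was at 1.28, FADS3 at 2.01, ELOVL4 at 1.59, ELOVL6 at 1.28 and ELOVL7 at 1.62. With total-count scaling they were at 0.29, 0.84, 0.64, 0.39 and 0.53. With upper-quartile scaling FADS3 was at 0.0655 and ELOVL4 at 0.0455. With limma-voom SCD was at -0.79, ELOVL4 at 0.0342 and ELOVL5 at -0.0920, and with the replicate block SCD was at -0.26 and ELOVL5 at -0.0363. FADS2 was at -0.25 with no filter. With a library left out SCD ran from -2.81 to 1.08, SCD5 from -2.53 to 1.29, FADS2 from -0.43 to -0.10, ELOVL4 from -2.04 to 0.29, ELOVL5 from -2.02 to 0.73 and ELOVL6 from -2.56 to 0.33. The median over all genes moved from 0.34 to 0.26 (RLE), 0.57 (upper quartile), 1.30 (total counts) and 2.43 (abundant genes).

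Among abundant genes the members called were 0 with total-count scaling, 0 at 2 times background, 0 with background by length alone, 2 with background subtracted, and 0 to 2 with a library left out. At 10 times background neither member was in the set. Genes called were 231, against 2 with total-count scaling, 368 with DESeq2, 387 with limma-voom, 0 at 2 times background, 0 with background by length alone, and 0 to 951 with a library left out. Calls that were increases made up 46.8%, against 58.3% with upper-quartile scaling. The cause of these changes was not tested. SCD kept its direction and ELOVL1 its own in each of these settings. In shFABP4 1 SCD5, FADS2, ELOVL1, ELOVL4, ELOVL6 and ELOVL7 lay within the spread of silent genes over their expected background (95th percentile 2.88).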
